A study of Mus musculus with 66 samples.

Results

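The microRNAs mmu-miR-2137, mmu-miR-1963 and mmu-miR-7072-5p are 3 of 1826 mouse miRNAs whose circulating levels were counted in plasma. They were selected on the difference of these counts between mice that had hepatocellular carcinoma (HCC) and mice that had none, and were higher with HCC, so that difference is described here without a test. Their variation among the HCC mice and their spread over a further cohort are other measures than that difference. Earlier results of these data were, however, known when the members and lists were chosen. The variation among the HCC mice is also not fully separate from that difference, since some HCC libraries resembled non-HCC ones. The question asked of the 3 miRNAs was whether they follow the miRNAs of liver from mouse to mouse.

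Plasma was taken by cardiac puncture at necropsy from 13 male mice of the inbred strain C3H, which is prone to liver tumors, and 8 of these mice had HCC and 5 did not (non-HCC). The labels place every C3H mouse more than 12 months after radiation, while the study's methods count both spontaneous and radiation-induced tumors among the HCC mice. The labels do not separate these, so the HCC mice form a single group. The further cohort (F2) is the second generation of a cross of BALB/c females with C3H males, irradiated and bled from the tail vein 1, 6, 12 and 18 months later, and its 53 libraries from 15 mice of both sexes that developed HCC carry no mouse, month or sex in the count table.

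A miRNA is a short RNA cut from the hairpin of a longer transcript, and its seed, bases 2 to 8 from the 5′ end, is the stretch through which it mainly recognizes target mRNAs. Some hairpins, called mirtrons, are released by splicing of a short intron instead of by the nuclear enzyme Drosha. Plasma miRNAs come from many cells, among them blood cells, muscle and liver, and miR-122, which is nearly confined to hepatocytes, rises in plasma when hepatocytes release their content. Little is known of the functions of miR-2137, miR-1963 and miR-7072, and each was named long after the classical miRNA families.

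The mature sequences were taken from RefSeq on GRCm38.p6 and are shown, with the seed in capitals, because they show that the 3 miRNAs are unrelated in sequence.
mmu-miR-2137: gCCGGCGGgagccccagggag
mmu-miR-1963: uGGGACGAgaucaugaggccuuc
mmu-miR-7072-5p: gAGGGGAGacaagaggcaaggc
mmu-miR-7072-3p: cUAGCUUCucuucuuccccag

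No 2 of these seeds were the same, and no other mouse miRNA of the RefSeq table carried any of them. The 21 bases of miR-2137 are G or C at 85.7%, and 1561 of 1566 miRNAs matched to a sequence had the same content or less, with a median of 52.4%. The GC content was 63.6% for miR-7072-5p and 56.5% for miR-1963. Across 1253 miRNAs tested, GC content and the log2 fold change between HCC and non-HCC mice had a rank correlation of 0.07, given as a description over miRNAs that share libraries. Each of the 3 mature sequences matched exactly in the transcripts of a single gene among 141767 GENCODE M21 transcripts, which was its own miRNA gene. The search covered these transcripts only, so it does not show that the reads came from no other place.

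The hairpins, also from RefSeq, are shown with the mature miRNAs in capitals because of where they end in their host introns.
Mir2137: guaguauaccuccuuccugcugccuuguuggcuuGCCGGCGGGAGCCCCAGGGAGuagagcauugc
Mir1963: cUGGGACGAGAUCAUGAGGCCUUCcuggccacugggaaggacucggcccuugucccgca
Mir7072: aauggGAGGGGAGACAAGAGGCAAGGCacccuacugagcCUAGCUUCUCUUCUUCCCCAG

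By the GENCODE M21 annotation of GRCm38, all 3 hairpins lie in introns of protein-coding genes on the same strand. Mir2137 (chrX:72992079-72992144, plus strand) is in an intron of Zfp185, a LIM domain gene, with 4890 bases left to the next exon. Mir1963 (chr7:29083636-29083694, minus strand) is in an intron of 2077 bases of Ryr1, the calcium release channel of skeletal muscle, and its hairpin stops 1 base before the intron's 3′ end. Mir7072 (chr8:94505046-94505105, plus strand) is in an intron of 641 bases of Nlrc5, a regulator of MHC class I genes, and the last base of its hairpin is the last base of the intron, with 0 bases between. Of 1005 mouse hairpins in the RefSeq table, 188 (18.7%) lay in an intron and ended 0 or 1 base before its 3′ end. The miRNAs of such hairpins, a class chosen after the values were seen, had a median log2 fold change of 0.73 over 245 tested, against 0.78 over all 1452 tested, and 15 of the 245 (6.12%) passed edgeR's test upward, against 109 of the 1452 (7.51%).

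Counts are of unique molecular indices (UMIs), by which the copies made in amplification are merged. The C3H libraries held between 9513136 and 14247488 miRNA UMIs. No value from 1 to 9 occurs in the tables, so an entry of 0 is read as fewer than 10 UMIs. Levels are log2 of the count plus 1 UMI, scaled by the mean count of 2 synthetic spike-ins, UniSP2 and UniSP4, that were added to the plasma before RNA isolation. In the C3H libraries UniSP2 had 165794 to 938898 UMIs and UniSP4 had 225 to 1008. The mean is thus set almost wholly by UniSP2. The spike-in scale moved all miRNAs of a mouse together, and the median log2 fold change of all miRNAs tested was 0.78 on it and 0.17 with TMM factors, which are computed from the miRNA counts themselves.

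The 8 HCC libraries were not equally far from each other. Over 318 miRNAs with at least 50 UMIs in all 13 mice, the SD of the log2 ratio between a pair of libraries was 0.248 for HCC mice 2 and 5 and 0.254 both for HCC mice 1 and 6 and for HCC mice 3 and 7. The other 25 pairs of HCC mice gave 0.787 to 1.58, and the 10 pairs of non-HCC mice gave 0.397 to 0.793. Outside their own pair, HCC mice 7 and 3 were closest to non-HCC mouse 1, at 0.664 and 0.731. Their closest other HCC mouse was mouse 8, at 0.811 and 0.853. Correlations that rest on mice 3 and 7 are thus not separate from the difference between HCC and non-HCC mice. Counting error alone would give an SD of 0.100 to 0.111 in the 3 close pairs, so none is a library deposited again, but this does not show that the members of a pair are independent samples. The labels name 8 mice, and they are kept as 8 here. The p-values below treat the 8 libraries as independent, and if the close pairs are not, these p-values are too small. The correlations with the lists, between the miRNAs and with the spike-ins are therefore also given with the pairs summed into 5 units, too few for a test. The lists of most similar miRNAs were not recomputed over the 5 units.

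MiR-2137 was the most abundant of the 3. HCC mice 1 to 8 had 4053, 2237, 1113, 2749, 1758, 4252, 1486 and 9135 UMIs of miR-2137, and in the 5 non-HCC mice, by number, the counts were 428, 311, 336, 289 and 227. The lowest mouse with HCC thus lay above the highest non-HCC mouse before any scaling. On the spike-in scale the log2 level of miR-2137 averaged 11.58 ± 1.40 (SD, n = 8) in the mice with HCC, against 7.99 ± 0.19 (SD, n = 5) in those without. The log2 fold change fitted by edgeR was 4.01 (standard error 0.72). As CPM, the UMIs out of 1000000 miRNA UMIs of a library, the mean of miR-2137 was 316 in HCC mice, rank 110 of 1826 miRNAs, and 26.3 in non-HCC mice, rank 241. HCC mouse 8, at 960 CPM, had the highest share, and HCC mouse 3, at 107, had the lowest of the HCC mice.

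The counts of miR-1963 were far smaller. In the order of the HCC mice they were 234, 244, 35, 154, 220, 235, 37 and 305 UMIs, and in the order of the non-HCC mice 13, 17, 10, 18 and 0, which is close to the limit of the table. The HCC mice fell into 6 with at least 154 UMIs and the mice 3 and 7, whose counts were nearest to those of the non-HCC mice. The log2 level of miR-1963 was 7.36 ± 2.03 (SD, n = 8) in HCC mice, and the 5 non-HCC mice had 3.19, 3.64, 3.05, 3.93 and 0.39, the last from the entry of 0. With that entry set to 9 UMIs, the mean of miR-1963 was at least 27.1-fold higher in HCC mice on the spike-in scale, at least 14.2-fold with TMM factors and at least 15.3-fold per total UMIs. The log2 fold change fitted by edgeR was 5.07 (standard error 1.00).

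MiR-7072-5p was listed in HCC mice only. The share of all miRNAs listed in HCC mice only is not given here, so nothing is read from this pattern. HCC mice 1 to 8 had 36, 32, 0, 87, 34, 51, 0 and 228 UMIs of miR-7072-5p, and each of the 5 non-HCC mice was listed at 0. The 2 HCC mice at 0 were again mice 3 and 7. With every 0 of the non-HCC mice set to 9 UMIs, the mean of miR-7072-5p was at least 9.41-fold higher in HCC mice on the spike-in scale, at least 6.18-fold with TMM factors and at least 7.60-fold per total UMIs, while the size of a fitted fold change would depend on the prior count. Its partner from the hairpin's other arm, miR-7072-3p, had 15, 10, 14, 11, 0, 13, 0 and 0 UMIs in HCC mice 1 to 8 and was at 0 in all non-HCC mice. HCC mouse 8 had the most UMIs of the 5p arm and no listed UMIs of the 3p arm.

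Over all 1452 miRNAs tested, 109 (7.51%) passed edgeR's test as higher in HCC mice, 0 passed as lower (3 at an unadjusted p under 0.05), and in 22 (1.52%) the lowest HCC mouse lay above the highest non-HCC mouse on the spike-in scale. MiR-2137 and miR-1963 belong to these 22 by the way they were picked, and nothing is read from it. Relative to the median of all miRNAs, the log2 fold change was 3.23 for miR-2137 on the spike-in scale and 3.21 with TMM factors, and for miR-1963 it was 4.29 and 3.84. Neither direction flipped between the 3 scales, from which nothing is read either. With TMM factors 7.37% of all tested miRNAs passed as higher and 2.2% as lower, with total UMIs 8.47% and 2.2%, and the lowest HCC mouse exceeded the highest non-HCC mouse in 3.72% and 4.41%.

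**Figure D1:**
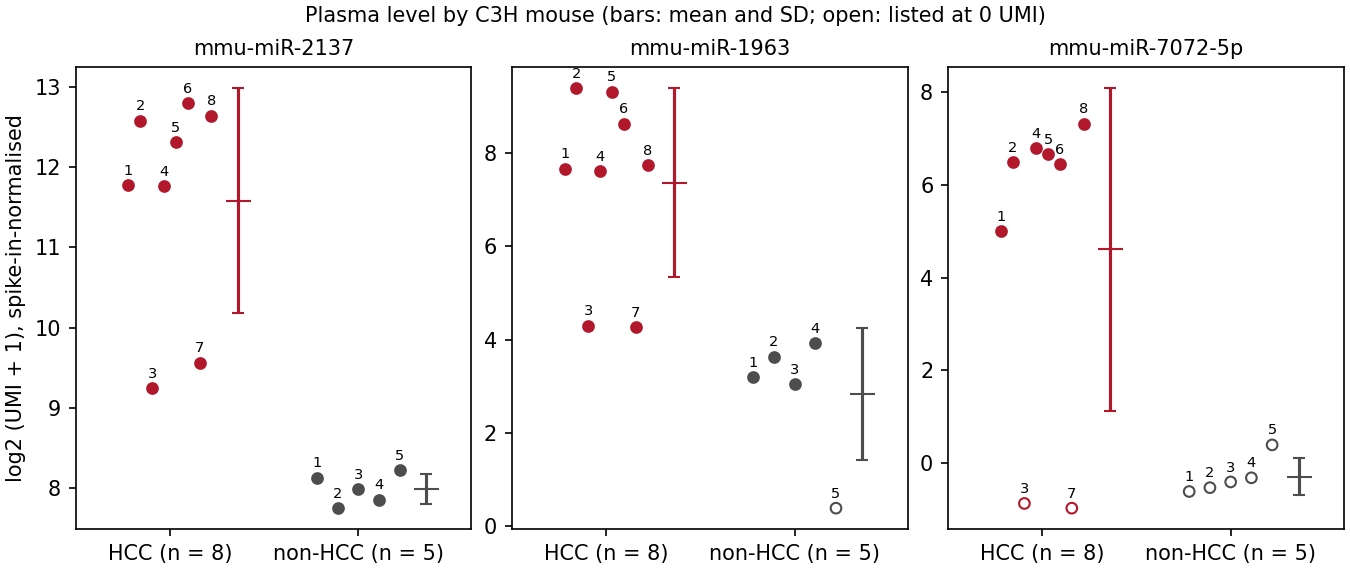
Spike-in-normalised log2 level of mmu-miR-2137, mmu-miR-1963 and mmu-miR-7072-5p in each C3H mouse, HCC (n = 8) and non-HCC (n = 5), with mouse numbers, means and SDs as bars, and open points for entries of 0 UMI, whose height is set by the added 1 UMI. HCC mice 3 and 7 are the lowest HCC mice in all 3 panels.

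The liver list held both arms of miR-122 and miR-148a-3p, miR-802-5p, miR-194-5p, miR-192-5p and miR-101b-3p, which are abundant in hepatocytes, although only miR-122 is nearly confined to them. Its mean log2 level in HCC mice 1 to 8 was 16.09, 18.06, 12.73, 16.02, 18.17, 16.99, 12.67 and 14.73, compared with 11.99 ± 0.56 (SD, n = 5) in the non-HCC group. HCC mice 3 and 7, lowest in miR-1963 and miR-2137, were also lowest in this list, while HCC mouse 8, highest in the UMIs of all 3 miRNAs, had the next lowest value. Of the 7 liver miRNAs 6 passed edgeR's test as higher in HCC mice, with a median log2 fold change of 4.25, and miR-101b-3p had 2.21 (adjusted p = 0.118). Of the 6 red cell, 5 platelet and leukocyte and 5 muscle miRNAs, 0 passed in either direction, with median log2 fold changes of -0.54, -0.69 and 1.47. At an unadjusted p under 0.05 there were 2 of these 16, miR-150-5p lower and miR-208b-3p higher, and with TMM factors 4 platelet and leukocyte miRNAs passed as lower. In plasma, more cells releasing a miRNA and more miRNA released per cell cannot be told apart.

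Among the HCC mice miR-1963 was the member with the highest r with the liver list. Its log2 level had a Pearson r of 0.97 with the liver list (exact two-sided permutation p = 0.000521, Benjamini-Hochberg adjusted p = 0.00937 over 18 correlations) and a Spearman rho of 0.90 (exact permutation p = 0.00456, adjusted p = 0.0652). Without HCC mice 3 and 7, the mice farthest from the median of the list, r of miR-1963 was 0.91 over 6 mice (exact permutation p = 0.0181). With the close pairs summed, r was 0.94 over 5 units. The adjusted p passed 0.05 in 7 of 8 cases with 1 HCC mouse left out, and without HCC mouse 6 it was 0.0631 by the exact permutation test.

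For miR-2137, r with the liver list was 0.85 (exact two-sided permutation p = 0.0131, adjusted p = 0.0471) and rho was 0.60 (exact permutation p = 0.132, adjusted p = 0.342). Without HCC mice 3 and 7 the r of miR-2137 was 0.19 (exact permutation p = 0.715), so the relation rests on those mice. The call held in 1 of 8 cases with 1 HCC mouse left out, that without HCC mouse 8, where r was 0.96. For miR-7072-5p, r with the liver list was 0.83 (exact permutation p = 0.0204, adjusted p = 0.0524) and rho was 0.40 (exact permutation p = 0.327, adjusted p = 0.452). Without mice 3 and 7, the HCC mice listed at 0, the r of miR-7072-5p was -0.14 (exact permutation p = 0.843). Over the 5 units with close pairs summed, r was 0.77 for miR-2137 and 0.75 for miR-7072-5p. The differences between these 3 correlations were not tested.

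On the spike-in scale a high r with the liver list was common. Over 744 miRNAs with at least 10 UMIs in all 8 HCC mice, the liver list left out, the median r with the list was 0.83, and 351 of 743 others had an r at or above that of miR-2137, 378 of 744 that of miR-7072-5p, and 70 of 743 that of miR-1963. The log2 spike-in mean itself had an r of -0.88 with the level of miR-1963 (exact permutation p = 0.00449, adjusted p = 0.0305). This r was -0.71 with miR-2137 and -0.69 with miR-7072-5p, where the adjusted exact permutation p was 0.0936 and 0.103. The spike-in mean is the divisor of these levels, so a negative r is partly built in. These p-values are therefore no test of a relation. Scaled by total UMIs instead, r with the spike-in mean was -0.51 for miR-1963, 0.12 for miR-2137 and -0.44 for miR-7072-5p. Over the 5 units the values on the spike-in scale were -0.86 for miR-1963, -0.75 for miR-2137 and -0.84 for miR-7072-5p.

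The total of miRNA UMIs includes the liver list, and miR-122-5p alone averaged 216411 CPM in the HCC mice. That scale is thus not independent of the list. Scaled by total miRNA UMIs, the median r with the liver list was 0.01. MiR-1963 then had an r of 0.90 (exact permutation p = 0.0159, adjusted p = 0.121), and 33 of 743 others reached it. This r fell to 0.03 without HCC mice 3 and 7, and was 0.84 over the 5 units. The r of miR-7072-5p was 0.79 on this scale (exact permutation p = 0.0335, adjusted p = 0.121), with 73 of 744 others at or above it, and turned to -0.78 without mice 3 and 7. For miR-2137 it was 0.44 (exact permutation p = 0.266, adjusted p = 0.461), with 188 of 743 others at or above it. Over the 5 units the r on total UMIs was 0.37 for miR-2137 and 0.75 for miR-7072-5p. On this scale none of the 3 passed after adjustment, and miR-1963 had the highest r on both scales, while miR-2137 and miR-7072-5p changed places.

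**Figure D2:**
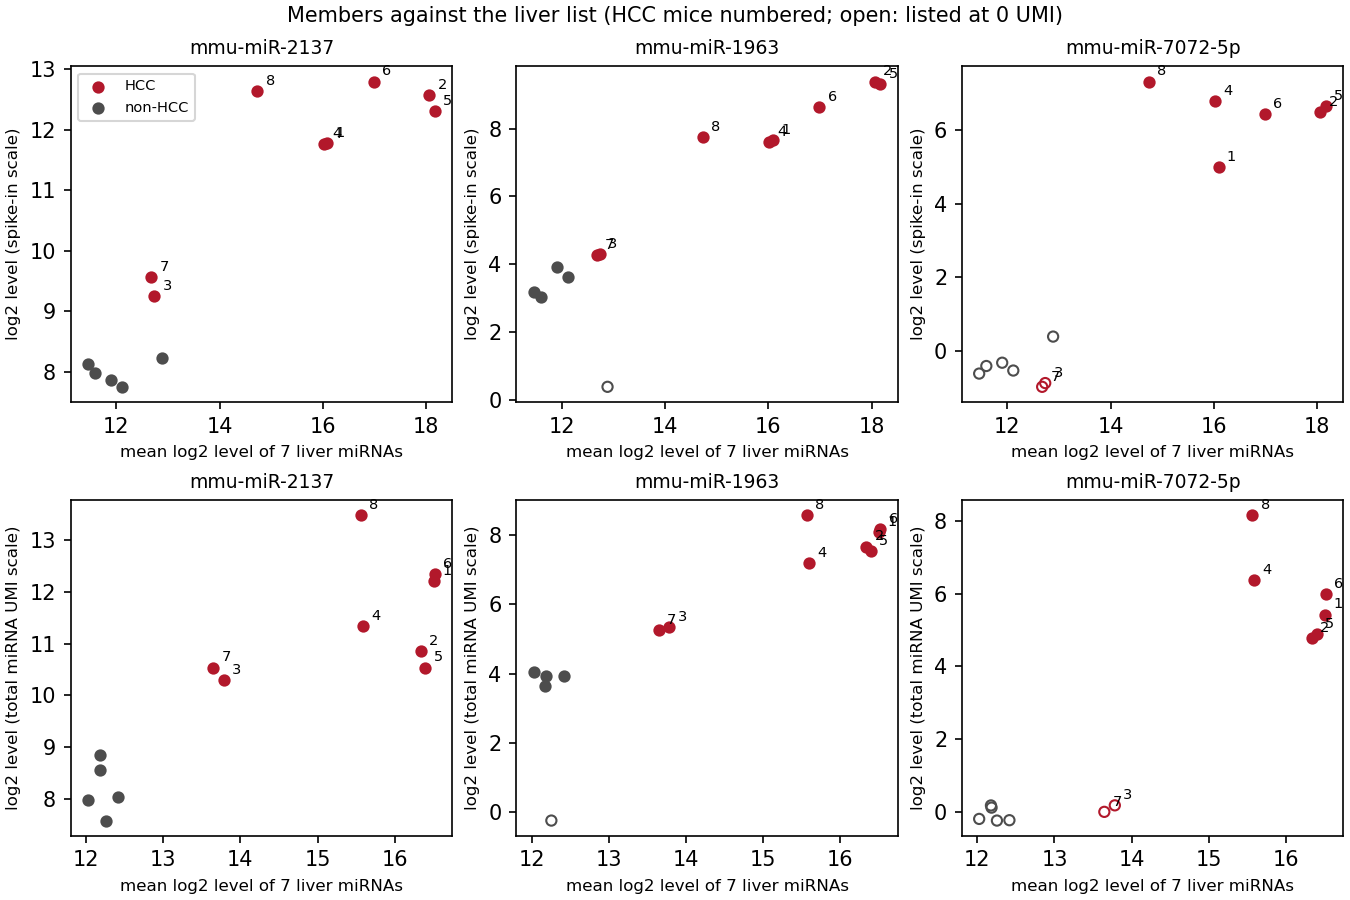
Log2 level of each miRNA against the mean log2 level of the 7 liver miRNAs in the C3H mice, on the spike-in scale (top) and the total miRNA UMI scale (bottom), with HCC mice numbered and open points for entries of 0 UMI. HCC mice 3 and 7 sit apart from the other 6 HCC mice in every panel, and the HCC pairs 2 and 5, 3 and 7 lie close together.

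A ratio within a library does not depend on the scale. The log2 level of miR-1963 minus the mean of the liver list was -8.42, -8.67, -8.44, -8.41, -8.85, -8.36, -8.40 and -7.00 in HCC mice 1 to 8. Apart from HCC mouse 8, these values lay between -8.85 and -8.36. The liver list itself, which does depend on the scale, ran from 12.67 to 18.17 on the spike-in scale. On total UMIs it ran from 13.65 to 16.52. In the 4 non-HCC mice with listed counts the same difference was -8.26, -8.48, -8.54 and -7.97. The SD of this difference over the 8 HCC mice was 0.561 for miR-1963, against a median of 1.39 over the miRNAs compared, and 13 of 743 others had a smaller one. Leaving out HCC mouse 8, a choice made after seeing its value, the SD for miR-1963 was 0.184, and 0 of 743 others had a smaller one. Counting error in those 7 mice alone would give about 0.154. With the close pairs summed, the 5 differences were -8.39, -8.76, -8.44, -8.41 and -7.00.

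For miR-2137 the same difference from the liver list was -4.31, -5.48, -3.48, -4.26, -5.86, -4.19, -3.11 and -2.10 in HCC mice 1 to 8. It was lowest in HCC mice 2 and 5, which had the highest liver list, and highest in HCC mouse 8. Its SD was 1.22, and 244 of 743 others had a smaller one. Without HCC mouse 8 it was 0.989, with 120 others smaller. With the close pairs summed, the 5 differences of miR-2137 were -4.25, -5.66, -3.28, -4.26 and -2.10. Against single liver miRNAs, the SD of the log2 difference of miR-1963 over the HCC mice was 0.487 from miR-802-5p and 0.757 from miR-122-5p, and that of miR-2137 was 0.996 and 1.49.

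**Figure D3:**
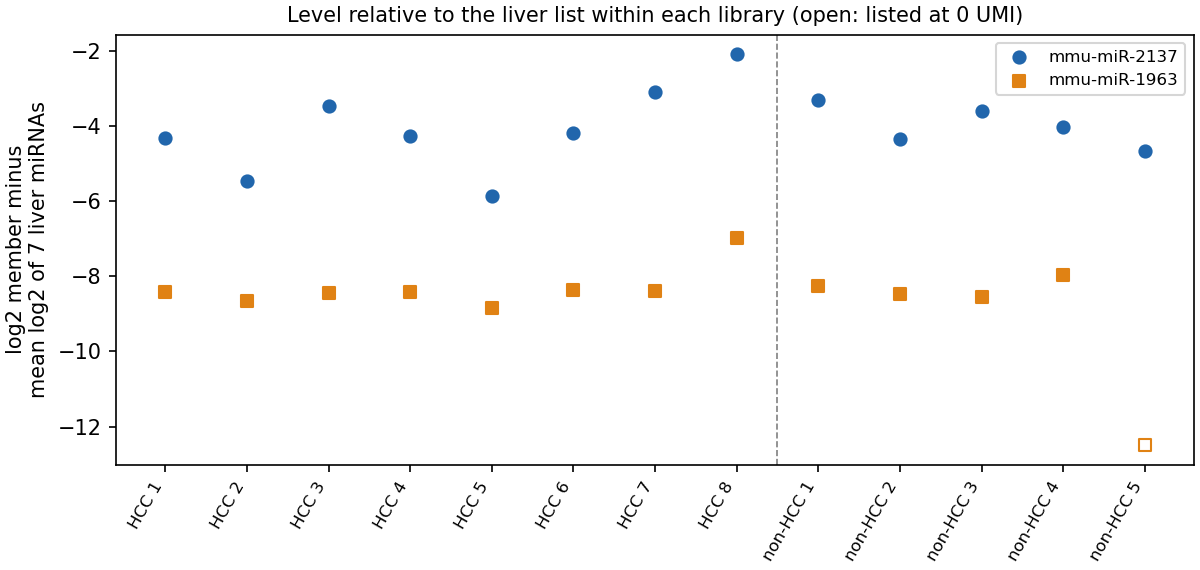
Log2 level of mmu-miR-2137 and mmu-miR-1963 minus the mean log2 level of the 7 liver miRNAs in each C3H library, HCC left and non-HCC right of the dashed line, with an open square for the entry of 0 UMI. The miR-1963 squares lie between -8.85 and -8.36 in HCC mice 1 to 7 and at -7.00 in HCC mouse 8, while the miR-2137 points run from -5.86 to -2.10.

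Over all 8 HCC mice the other cell type lists gave no correlation that passed after adjustment. With the red cell list, r over the 8 HCC mice was 0.13 for miR-2137, 0.33 for miR-1963 and 0.19 for miR-7072-5p, and all 3 values were negative on the total UMI scale, at -0.57, -0.62 and -0.46. With the muscle list they were 0.24, 0.32 and 0.42. With the platelet and leukocyte list they were 0.57, 0.74 and 0.63, and for miR-1963 the adjusted exact permutation p was 0.0892. Without HCC mouse 8 the correlation with the platelet and leukocyte list passed for miR-1963 (r = 0.81, adjusted exact permutation p = 0.0458) and for miR-7072-5p (r = 0.81, adjusted exact permutation p = 0.0313). Over the 5 units, miR-2137, miR-1963 and miR-7072-5p had r of 0.07, 0.31 and 0.15 with the red cell list, 0.18, 0.27 and 0.40 with the muscle list and 0.42, 0.66 and 0.53 with the platelet and leukocyte list.

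The 3 miRNAs were then compared with each other. Over the HCC mice r was 0.95 between miR-2137 and miR-1963 (exact permutation p = 0.00508, adjusted p = 0.0305), 0.97 between miR-2137 and miR-7072-5p (exact permutation p = 0.00823, adjusted p = 0.0371) and 0.93 between miR-1963 and miR-7072-5p (exact permutation p = 0.0168, adjusted p = 0.0504). The rho values of these pairs were 0.79, 0.55 and 0.52, with adjusted exact p of 0.126, 0.342 and 0.354. Without HCC mice 3 and 7 the r fell to 0.53, 0.50 and 0.14, so on the spike-in scale these relations rest on those mice too. Over the 5 units with close pairs summed, r was 0.94, 0.97 and 0.91. With 1 HCC mouse left out at a time, each pair passed after adjustment in 1 of 8 cases, that without HCC mouse 8. On total UMIs the r of the pairs, in the same order, was 0.77, 0.78 and 0.95 over the 8 HCC mice. Without mice 3 and 7 it was 0.86, 0.84 and 0.56 on that scale, so there only the last pair fell. With TMM factors it went from 0.75, 0.77 and 0.90 to 0.57, 0.74 and 0.10.

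The miRNAs most like each of the 3 were named by r over the 8 HCC mice, among those with at least 10 UMIs in all of them. For miR-2137 the first 5 of 750 were miR-6538 (r = 0.995), miR-3960 (0.990), miR-672-5p (0.983), miR-7036b-3p (0.982) and miR-615-5p (0.978), against a median of 0.678. With TMM factors 4 of these 5 were again among the first 5, and with total UMIs 3 of them, miR-6538, miR-672-5p and miR-7036b-3p. The sequence of miR-6538, cGCGGGCUccggggcggcg with its seed in capitals, is 94.7% G or C and shares at most 5 bases in a row with miR-2137. None of the first 5 was a miRNA of the liver list.

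For miR-1963 the first 5 of 750 were miR-718 (r = 0.989), miR-365-2-5p (0.984), miR-219c-5p (0.984), miR-802-3p (0.982) and miR-672-5p (0.981), against a median of 0.791. MiR-802-3p, the other arm of a liver miRNA hairpin, and miR-718 were among the first 5 on all 3 scales, with r of 0.949 and 0.970 on total UMIs. MiR-122-5p, the main miRNA of hepatocytes, entered the first 5 of miR-1963 with TMM factors, at 0.939.

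For miR-7072-5p the list was the least stable, as 1 of its first 5 on the spike-in scale remained with TMM factors and 0 with total UMIs. On the spike-in scale they were miR-6927-3p (r = 0.978), miR-6541 (0.975), miR-2137 (0.969), miR-138-1-3p (0.966) and miR-3072-3p (0.965). MiR-6541, cACAGGCAaggacuucucaag, shares the run AGGCAAGG with miR-7072-5p, and the counting could not be checked for reads split between them. On total UMIs both arms of miR-802 were among the first 5 of miR-7072-5p, with r of 0.960 for the 3p and 0.954 for the 5p arm. The others there were miR-224-5p (0.977), miR-1258-5p (0.973) and miR-331-3p (0.953). With TMM factors the first 5 were miR-802-3p (0.927), miR-7237-3p (0.915), miR-802-5p (0.914), miR-1963 (0.904) and miR-6541 (0.901).

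In the F2 cohort the libraries were shallower, at 205194 to 3020311 miRNA UMIs, so that the limit of 10 UMIs lay between 3.31 and 48.7 CPM. MiR-2137 was listed in 52 of 53 F2 libraries, with a median of 40 UMIs and 49.4 CPM. The highest library had 666 UMIs of miR-2137 among 2394894 miRNA UMIs, or 278 CPM with a Clopper-Pearson 95% interval of 257 to 300 that covers counting error only, and the next highest was 131 CPM. In the C3H table the non-HCC mice had 16.3 to 39.2 CPM and the HCC mice 107 to 960, but the 2 tables differ in strain, sex, blood draw and depth, and their values were not tested against each other.

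MiR-1963 was listed in 14 of 53 F2 libraries, with at most 31 UMIs, and miR-7072-5p in 7, with at most 17, and 5 libraries had both. As a gauge of depth alone, a share of 16.3 CPM, the C3H HCC mean of miR-1963, makes 10 UMIs in 40 of the F2 libraries, and one of 5.54 CPM, that of miR-7072-5p, in only 2. Entries of 0 for miR-7072-5p thus say little at this depth. The library with the highest miR-2137 also had the 31 UMIs of miR-1963 and the 17 UMIs of miR-7072-5p, and it was second deepest of the 53 and the seventh highest in the liver list. As shares these counts were 12.9 and 7.10 CPM, while the highest F2 libraries reached 34.6 and 21.2 CPM. By share it was thus the highest library for miR-2137 only. MiR-7072-3p was listed in 9 F2 libraries, with at most 60 UMIs.

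Over the 53 F2 libraries, which share mice and are not independent, the rank correlation of miR-2137 with the liver list was 0.68 on the spike-in scale, as a description. The median over 864 other miRNAs listed in at least 40 libraries was 0.54, and 126 of them were at or above miR-2137. With the red cell, platelet and leukocyte and muscle lists it was 0.53, 0.62 and 0.49. With the spike-in mean itself, the divisor of the level, it was -0.66, against -0.14 on the total UMI scale. On the total UMI scale it was 0.33 with the liver list, where the median of the others was 0.21 and 116 were at or above, and -0.21, -0.01 and 0.25 with the other lists. MiR-2137 thus lay in the upper part of all miRNAs in its rank correlation with the liver list on both scales, without being among the closest.

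**Figure D4:**
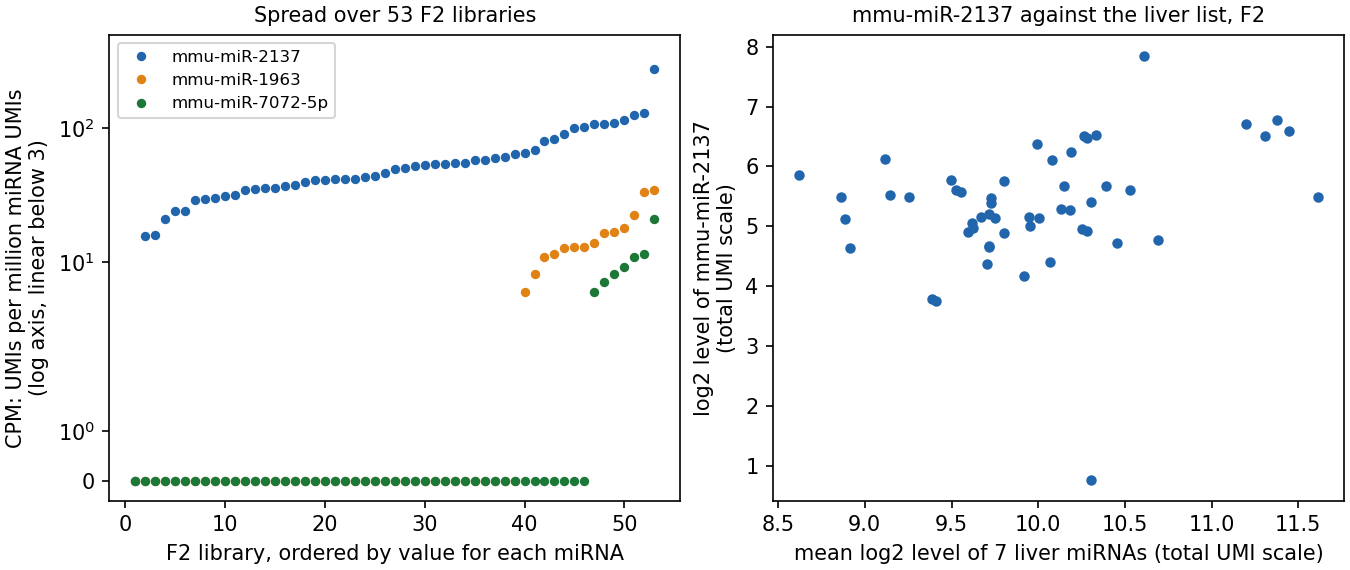
CPM of the 3 miRNAs in the 53 F2 libraries, each ordered by its own values (left, log axis that is linear below 3), and log2 level of mmu-miR-2137 against the mean of the 7 liver miRNAs on the total UMI scale (right, a point per library). A single library reaches 278 CPM of miR-2137, and most libraries are listed at 0 for miR-1963 and miR-7072-5p.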

How the data were processed

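The authors isolated RNA from plasma, built QIAseq miRNA libraries with molecular barcodes, aligned reads to GRCm38 (the processing notes name FastQC and Bowtie2, with versions not given in the sources used here), annotated miRNAs by miRBase and deposited UMI counts per miRNA without normalization. C3H columns were assigned by the mouse number in the labels. The F2 columns match no single label and were used only as a group, for ranges, medians and rank correlations.

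The members and the lists of liver, red cell, platelet and leukocyte, and muscle miRNAs were chosen with earlier results of these data known. HCC and non-HCC counts were fitted with edgeR 4.0.16 (quasi-likelihood, R 4.3.3) on the spike-in scale where 5 or more mice reached 10 UMIs, and p-values were adjusted by Benjamini-Hochberg against 0.05. The standard error is the log2 fold change over the square root of F. Correlations over the 8 HCC mice used exact two-sided permutation over all 40320 orders (numpy 2.4.6, scipy 1.17.1), adjusted over 18, and with leaving out the 2 mice farthest from the median. Both steps were tested on simulated data. The miRNAs named are the 3 members, their other hairpin arms, the lists, and the 5 miRNAs with the highest r for each member on each scale. Alternatives were TMM factors, each spike-in alone, total UMIs, limma 3.58.1, DESeq2 1.42.0, other filters, the replicate number as a block, 10 UMIs as the pseudocount, a liver list without miR-122 and each mouse left out. Summing close pairs of HCC libraries was added after seeing the data. Of 1826 C3H miRNAs, 1566 matched a RefSeq mature sequence. Intervals cover counting error only.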

Additional observations from a re-analysis of the deposited data

Results flagged for a closer look

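A search of 13 groups of values for mice that stand apart found 2, and about 1 in 20 groups would show such a mouse by chance. The log2 level of miR-1963 in non-HCC mouse 5 was 0.39, against 3.05 in the next lowest non-HCC mouse, and it comes from the entry of 0 UMIs, which can hide up to 9. The mean log2 level of the muscle list was 10.83 in non-HCC mouse 2, against 9.65 in the next highest non-HCC mouse, and miR-2137 and miR-1963 did not stand apart in that mouse, with 311 and 17 UMIs.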

How the results depend on the processing

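The log2 fold changes of miR-2137 and miR-1963 stayed positive in every alternative run, and that of miR-7072-5p in every one that fitted it. The members were picked on this difference, so nothing is read from these signs. The fits on mice 1 to 5 and on summed pairs did not hold miR-7072-5p after the filter. The numbers in the labels name different mice and do not pair them, as the deviations of same-numbered mice had r of -0.13 to 0.07. With the replicate block the count of higher miRNAs was 146, and with the same 10 mice and no block it was 165, against 109. Other counts of higher miRNAs were 44 with limma, 179 with DESeq2 on spike-in factors and 97 with similar libraries summed. The 0 lower miRNAs of edgeR (3 at an unadjusted p under 0.05) became 32 with TMM factors and with total UMIs, 61 with DESeq2's own factors, 2 with DESeq2 on spike-in factors, 1 with UniSP4 alone and 0 with limma. With 1 mouse left out, the higher count lay between 44 and 157, at 65 without HCC mouse 2 and 44, 47, 47 and 53 without non-HCC mice 1 to 4. The cause of these shifts was not tested.

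With TMM factors, the r of miR-2137 was 0.41 with the liver, -0.63 with the red cell, -0.61 with the platelet and leukocyte and -0.34 with the muscle list. Those of miR-1963 were 0.90, -0.48, -0.21 and -0.46, and those of miR-7072-5p with the red cell, platelet and leukocyte and muscle lists were -0.47, -0.10 and -0.10. TMM factors also gave 0.75 between miR-2137 and miR-1963, 0.77 between miR-2137 and miR-7072-5p and -0.64 between miR-1963 and the spike-in mean. With total UMIs, the r of miR-2137 was 0.44 with the liver, -0.57 with the red cell, -0.11 with the platelet and leukocyte and -0.024 with the muscle list. Those of miR-1963 were 0.90, -0.62, -0.15 and -0.29, and that of miR-7072-5p with the red cell list was -0.46. Total UMIs gave 0.77 and 0.78 between miR-2137 and the other two, and 0.12 and -0.51 with the spike-in mean for miR-2137 and miR-1963. None of these passed after adjustment. With UniSP4 alone, the calls were also lost for miR-2137 with the liver list (0.81), with miR-1963 (0.93) and with miR-7072-5p (0.95) and for miR-1963 with the spike-in mean (-0.82), and miR-2137 had -0.094 with the red cell list. The liver list without miR-122 gave 0.82 for miR-2137, and with total UMIs as well it gave 0.43 for miR-2137 and 0.88 for miR-1963, none past the threshold. A pseudocount of 10 UMIs brought miR-7072-5p past it with the liver list (0.82) and with miR-1963 (0.92).

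With 1 HCC mouse left out, the r with the liver list lay between 0.77 and 0.96 for miR-2137, 0.95 and 0.998 for miR-1963, and 0.73 and 0.94 for miR-7072-5p. That of miR-2137 with the red cell list lay between -0.021 (without HCC mouse 2) and 0.29, and those with the platelet and leukocyte list between 0.68 and 0.81 for miR-1963 and between 0.53 and 0.81 for miR-7072-5p, where the highest of both, without HCC mouse 8, passed after adjustment. Between the members the ranges were 0.92 to 0.98, 0.95 to 0.99 and 0.88 to 0.96. With the spike-in mean, the divisor of these levels, they were -0.88 to -0.61 for miR-2137, -0.94 to -0.85 for miR-1963 and -0.86 to -0.58 for miR-7072-5p.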
